A study of Mus musculus with 22 samples.

Results

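Granulocytic myeloid-derived suppressor cells (G-MDSCs) of all 4 groups that received entinostat, with or without antibodies, were compared on average with those of vehicle. Every sample column whose name begins with ENT was taken, 16 columns in all, and the 4 groups were given equal weight against the 6 vehicle columns, so that all 22 samples of the study entered. All 655 endogenous genes of the NanoString mouse myeloid panel were considered, and the 420 with a mean above background in 1 group or more were tested. The mice were female FVB-Neu-N animals, 7 to 8 weeks old at implantation, which carry a rat neu transgene under a mammary promoter. They received 50000 NT2.5 cells, a single line derived from a spontaneous mammary tumour, in the mammary fat pad, and dosing started 3 days later and ran for 3 weeks. Vehicle mice were given 0.5% methylcellulose by gavage with isotype antibodies. The entinostat group received 5 mg/kg of the drug daily, the second group entinostat and anti-PD-1, the third entinostat and anti-CTLA-4, and the fourth, called the triple combination, entinostat with both antibodies. Each antibody was dosed at 100 µg per mouse, 2 times a week. Each drug-treated group held 4 samples. Antibody without entinostat was in none of the groups, and whether the anti-HER2 antibody named in the protocol was used for these samples is not stated. The labels do not tie samples to separate animals, so p-values measure the spread between samples, which may be technical.

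G-MDSCs are immature neutrophil-like cells that gather in tumours and can hold back T cells, through arginine depletion, reactive oxygen species, prostaglandins and checkpoint ligands. Entinostat inhibits class I histone deacetylases, enzymes that remove acetyl groups from histones and other proteins, and the aim stated for the profiling was to look for mechanisms behind an impaired function of these cells. The average over groups that share the drug and differ in antibody asks which genes differed from vehicle in the mean of the 4 groups, and it does not require a difference in each. Whether the 4 groups moved alike was tested separately.

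Depth varied widely between samples, from 23296 to 443871 barcode counts (median 179364), and a single barcode count was worth 0.400 to 9.78 normalized counts. Total counts were not shown to differ between the 16 drug-treated and the 6 vehicle samples (exact permutation test over 74613 arrangements, two-sided, p = 0.861, 0.870 adjusted over 4 measures, of which the housekeeping mean is held even by the normalization and is not read as a test). The groups were not tested one by one. Counts were 127353 to 247892 in vehicle, 107446 to 162080 after entinostat alone and 178490 to 260317 with anti-PD-1, with no overlap between these last groups. They were 165662 to 443871 with anti-CTLA-4 and 23296 to 391309 in the triple combination. The mean of the negative controls was 10.2 ± 6.43 normalized counts in the drug-treated samples against 5.86 ± 0.797 in vehicle (exact permutation p = 0.117, adjusted 0.367). The median log2 level of the tested genes was 7.05 ± 0.35 against 6.83 ± 0.32 (exact permutation p = 0.183, adjusted 0.367). Samples were run on 2 cartridges. Entinostat alone and entinostat plus anti-PD-1 were run wholly on the first, with 3 vehicle samples and triple combination sample a. Entinostat plus anti-CTLA-4 was run wholly on the second, with the other vehicle and triple combination samples. The letters a and b mark columns whose names were repeated in the file. In the order of lanes, triple combination sample a sat among vehicle samples and vehicle sample 3 among triple combination samples. Whether their labels were exchanged cannot be told from the sources used here, so values of either sample may belong to the other group. With both left out, 0 genes were called by limma, 161 having an unadjusted p under 0.05.

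The isolates carried neutrophil transcripts, with S100a9 at 1959 to 24140 normalized counts over all samples. Ly6g, the surface antigen by which the cells were selected, averaged below the background limit of 29.3 normalized counts in every group, at 3.43 to 8.23 in vehicle and 1.74 to 30.2 in the drug-treated samples. Markers of T cells (Cd28), NK cells (Klrk1 and Gzma) and B cells (Ms4a1) were below the limit in every group as well. Epithelial genes were present throughout, with the summed level of Cdh1, Tgfa, Areg and Met at 1288 to 1951 normalized counts in vehicle. Monocyte and macrophage genes were present too and varied widely, summing to 813 to 5349 in vehicle. Fibroblast and matrix genes summed to 1357 to 2679 in vehicle. In such bulk samples fewer cells of a type and less RNA per cell cannot be told apart.

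Over the 4 groups 3 genes rose, and no gene fell. They were Csf1, Il17ra and Peli1. Csf1 encodes the growth factor of monocytes and macrophages, Il17ra the shared receptor chain through which IL-17 acts on neutrophils and stromal cells, and Peli1 the ubiquitin ligase Pellino 1 of Toll-like and IL-1 receptor signalling. The 3 genes made up 0.714% of the 420 tested, and 0% were called lower (limma, Benjamini-Hochberg adjusted p under 0.05, two-sided). Without adjustment 114 genes had a p under 0.05 on the higher side, 27.1% of those tested, and 18 on the lower side, 4.29%. The number past the threshold moved steeply with it: at an adjusted p under 0.1 there were 68 genes, 60 higher and 8 lower, and at 0.2 there were 173. Other scalings changed the split of 3 higher and 0 lower calls to 16 and 3 with quantile normalization and to 12 and 13 with DESeq2.

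The promoters of the called genes are shown because a deacetylase inhibitor acts on chromatin, and they are the stretch nearest to the start of each transcript. For 2 of the 3 genes RefSeq (GRCm38.p6) gave the 250 bases before the start, written 5′ to 3′ on the strand of the gene, Csf1 on the minus strand at chr3:107760470-107760719 and Peli1 on the plus strand at chr11:21091074-21091323. Il17ra was not matched. Capitals mark the GC box GGGCGG, bound by Sp factors, and the NF-kB motif, searched as GGG, any 2 bases, then TTTCC, each on both strands.
Csf1: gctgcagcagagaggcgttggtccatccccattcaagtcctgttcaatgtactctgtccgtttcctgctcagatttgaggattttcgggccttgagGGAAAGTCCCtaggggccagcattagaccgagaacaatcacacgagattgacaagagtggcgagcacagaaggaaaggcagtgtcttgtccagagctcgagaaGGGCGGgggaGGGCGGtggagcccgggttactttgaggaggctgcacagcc
Peli1: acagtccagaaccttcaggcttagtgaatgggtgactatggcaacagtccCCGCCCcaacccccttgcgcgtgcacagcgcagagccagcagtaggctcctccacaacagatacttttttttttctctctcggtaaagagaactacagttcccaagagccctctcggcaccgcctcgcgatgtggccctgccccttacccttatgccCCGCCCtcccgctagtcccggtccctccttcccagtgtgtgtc
Each window held 2 GC boxes, on the strand shown in Csf1 and on the other strand in Peli1, and no match overlapped another. The GC box was present in 32.7% of the 32851 promoter windows of the same length. The Csf1 window also held 1 NF-kB match, which 1.41% of the windows had, and the Peli1 window held 0. These are matches of letters, and no binding was measured.

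Csf1 had the largest change of the 3. In vehicle it ran from 149.6 over a median of 233 to 499.5 normalized counts, with vehicle sample 2 highest. The 4 samples of entinostat alone stood at 847, 949, 1114 and 603, and those of entinostat plus anti-PD-1 at 687, 559, 593 and 745. All 8 of these lay above every vehicle sample. In entinostat plus anti-CTLA-4, sample a was at 532 and samples 1, b and 3 at 209, 194 and 244, inside the vehicle range. The triple combination samples a, b, 2 and 4 stood at 412, 492, 479 and 597. The average log2 fold change was 1.03 ± 0.22 (SE, limma adjusted p = 0.0265), with 13 of 16 drug-treated samples above the vehicle mean and 10 above the vehicle maximum. The 4 groups' own log2 fold changes against the shared vehicle samples were 1.76, 1.34, 0.09 and 0.95 in the order above, and they differed among themselves (moderated F test, adjusted p = 0.00983).

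Il17ra followed, 0.66 ± 0.13 higher on the log2 scale (SE, limma adjusted p = 0.0265). Vehicle samples lay between 91.4 and 145.8 normalized counts (median 94.5), and 5 of the 6 were under 100. Entinostat alone gave 170.1, 248, 250.3 and 225, and entinostat plus anti-PD-1 gave 222, 199, 187 and 223. Again each of these exceeded all vehicle samples. Entinostat plus anti-CTLA-4 was at 167 in sample a and at 86.7, 84.1 and 101 in samples 1, b and 3, of which 2 were below the lowest vehicle sample. The triple combination formed a narrow band of 139.6, 142, 137 and 136, above 5 vehicle samples and below vehicle sample 2. By group the log2 fold changes were 1.12, 1.03, 0.06 and 0.45, and the groups differed (F test adjusted p = 0.00983).

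Peli1 was the called gene with the smallest change and the most even one. Vehicle samples ran from 202 over a median of 251 to 275 normalized counts. The values were 298, 346, 339 and 301 after entinostat alone, 358, 358, 303 and 398 with anti-PD-1, 319, 281, 268 and 284 with anti-CTLA-4, and 308, 313, 284 and 308 in the triple combination. All 16 drug-treated samples were above the vehicle mean of 248, and 15 were above the vehicle maximum, the exception being entinostat plus anti-CTLA-4 sample b at 268. The log2 fold change was 0.35 ± 0.080 (SE, limma adjusted p = 0.0434), with 0.37, 0.51, 0.22 and 0.29 in the 4 groups, which were not shown to differ (F test adjusted p = 0.220).

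**Figure D1:**
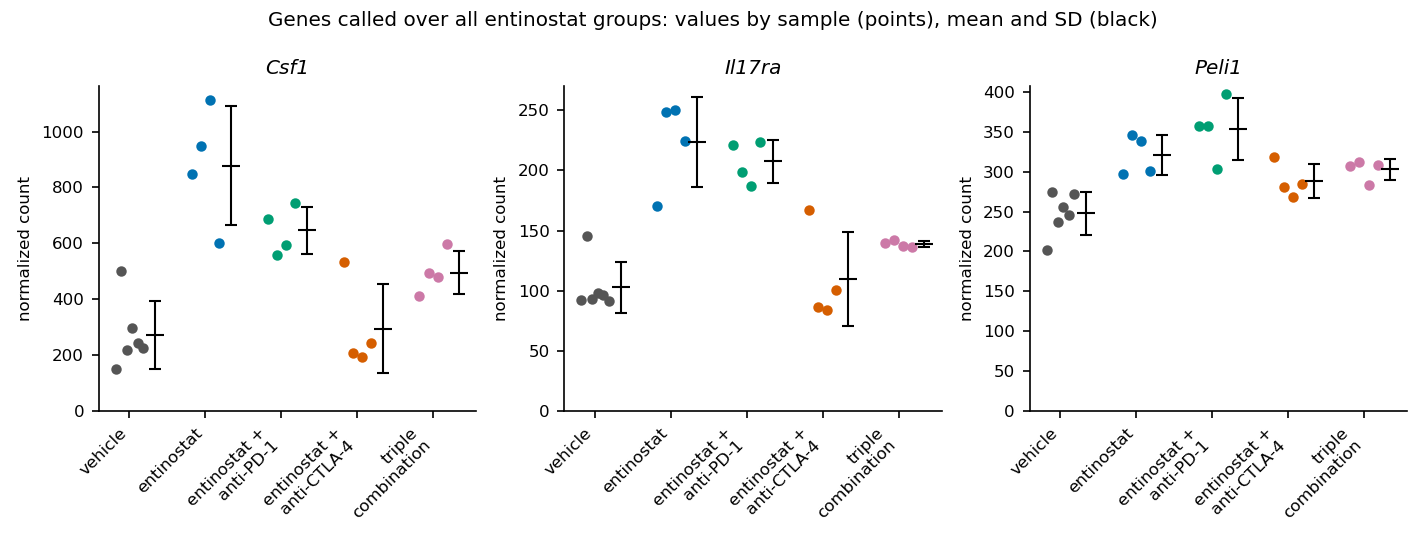
Normalized counts (vertical axes, linear, from 0) of Csf1, Il17ra and Peli1 in each of the 22 samples (points) of the 5 groups (horizontal axes), with the mean and SD of each group in black. Entinostat alone and entinostat plus anti-PD-1 lie above every vehicle sample in all 3 genes, while 3 of the 4 samples of entinostat plus anti-CTLA-4 lie within or below the vehicle range of Csf1 and Il17ra.

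How far the 3 calls held depended on samples and on scaling. Csf1 and Il17ra were each called in 16 of 22 fits that left out a single sample, and lost their call without vehicle sample 1, 3, 4, V1 or V2 or without entinostat plus anti-PD-1 sample 4, with log2 fold changes of 0.88 to 1.23 and 0.61 to 0.77 over all 22. Peli1 was called in 5 of the 22, those without vehicle sample 2, entinostat plus anti-PD-1 sample 3, entinostat plus anti-CTLA-4 sample a or b, or triple combination sample 2, and its log2 fold change stayed within 0.29 and 0.38. Scalings that take out a shift common to most genes reduced Peli1 to 0.13 (median centring), 0.024 (quantile), 0.037 (edgeR with TMM) and 0.11 (DESeq2), none of them called. Csf1 remained called under all 4 of these, at 0.81, 0.77, 0.69 and 0.76, and Il17ra only with DESeq2 (0.41, adjusted p = 0.0365). With cartridge as a block all 3 were called, at 1.04, 0.66 and 0.36. Within cartridge 1 alone the log2 fold changes were 1.27, 0.78 and 0.47, and within cartridge 2 they were 0.56, 0.34 and 0.19. The cartridges averaged different groups. Cartridge 1 held entinostat alone, entinostat plus anti-PD-1 and triple combination sample a. Cartridge 2 held entinostat plus anti-CTLA-4 and 3 triple combination samples, and it gave no call (limma, 0 genes, with 11 at an unadjusted p under 0.05). With the mean of the 4 epithelial genes as a covariate the log2 fold changes were 0.68, 0.50 and 0.32, and 0 genes were called (26 at an unadjusted p under 0.05).

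**Figure D2:**
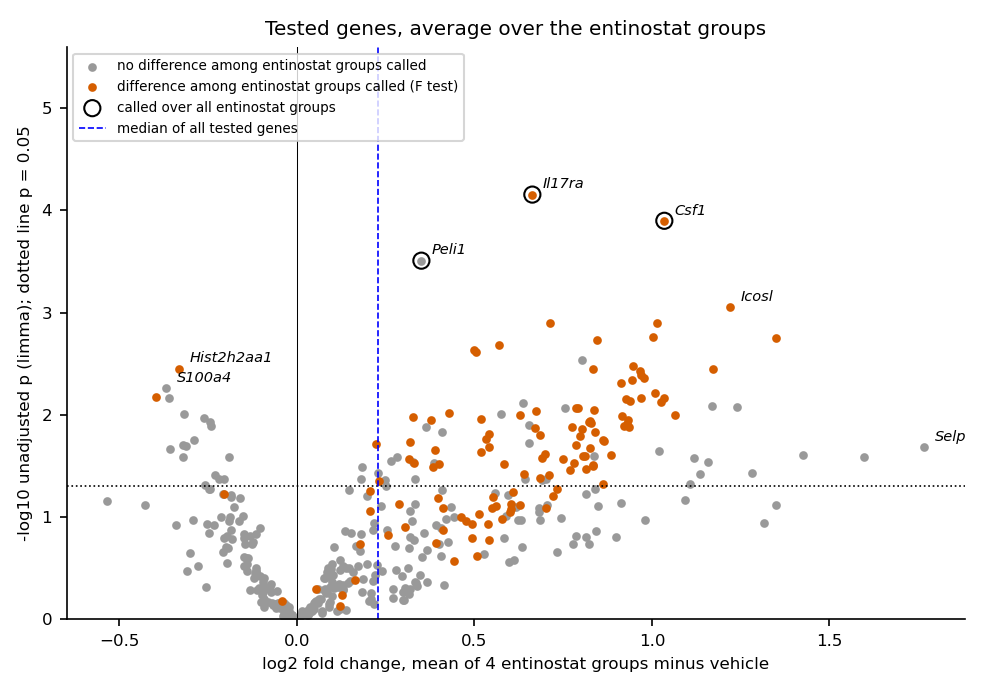
Log2 fold change of each of the 420 tested genes, mean of the 4 drug-treated groups minus vehicle (horizontal axis), against the negative log10 of the unadjusted limma p (vertical axis). Circles mark the 3 called genes, orange the 120 genes that differed among the 4 groups, and the dashed line the median of all tested genes at 0.23, so most points lie to the right of 0.

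The tested genes leaned upward in the average. Their median level by sample was not shown to differ between drug-treated and vehicle samples (exact permutation p = 0.183, adjusted 0.367). Of the 420 genes 307 had a positive average, 73.1%, and the median log2 fold change was 0.23, with a range of -0.53 to 1.77. By group the median was 0.50 after entinostat alone, 0.29 with anti-PD-1, -0.13 with anti-CTLA-4 and 0.30 in the triple combination. The median of all genes was 0.0029 after median centring, -0.076 after quantile normalization, -0.13 with TMM and -0.068 with DESeq2. Those 4 scalings take out a shift common to most genes by construction, so these values do not bear on whether the shift was real.

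The 4 groups did not move alike. The F test among them called 120 of 420 genes, 28.6%, and called 2 of the 3 genes of the average. Against vehicle, each group's own contrast called 152 genes higher (36.2%) and 16 lower (3.81%) for entinostat alone, and 86 higher (20.5%) and 6 lower (1.43%) with anti-PD-1. With anti-CTLA-4 and in the triple combination 0% were called in either direction by limma, with 1 gene higher and 5 lower, and 50 higher and 9 lower, at an unadjusted p under 0.05. All 4 log2 fold changes were positive in 49 genes (11.7%) and negative in 41 (9.76%), and all 4 contrasts use the same vehicle samples. Among the 120 genes that differed, entinostat plus anti-CTLA-4 was the lowest group in 115, and entinostat alone was the highest in 97 and entinostat plus anti-PD-1 in 18.

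The 5 genes with the smallest p in that test were Jak3, Il17ra, Rhog, Pik3cg and Btg2. Jak3, the kinase of the common gamma chain of cytokine receptors, had group log2 fold changes of 0.92, 0.57, -0.27 and 0.06 (F test adjusted p = 0.00652) around an average of 0.32 ± 0.12 (SE, limma adjusted p = 0.106). Its vehicle samples ran from 70.04 over a median of 94.9 to 121 normalized counts. Entinostat alone gave 174, 188, 179 and 164, above all of them, and entinostat plus anti-CTLA-4 gave 97.5, 58, 90.5 and 68.2. Rhog, a small GTPase, stood at 1.19, 1.05, -0.48 and 0.31. Pik3cg, the phosphoinositide 3-kinase that acts below chemokine receptors, stood at 1.34, 1.22, -0.60 and 0.72, at low levels of 2.90 to 35.8 normalized counts. It averaged above background only in entinostat alone and entinostat plus anti-PD-1, so it was tested through the groups where it was highest. Btg2, an antiproliferative factor, stood at 1.24, 1.21, -0.21 and 0.62. For each of the last 3 the F test adjusted p was 0.00983.

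The calls among groups changed with the groups and the cartridge terms in the fit. The F test called 0 genes without entinostat alone (136 at an unadjusted p under 0.05) and 0 without entinostat plus anti-CTLA-4 (52). Without the latter group the average called 178, 161 higher and 17 lower, the 3 genes above among them. The F test called 0 genes with cartridge as a block (130 at an unadjusted p under 0.05) and 0 within each cartridge (58 and 105). No sample of entinostat plus anti-CTLA-4 shared a cartridge with entinostat alone or with entinostat plus anti-PD-1, so that contrast and the cartridge cannot be told apart except through vehicle and the triple combination. Without sample 1 or sample b of entinostat plus anti-CTLA-4 the F test called 1 gene, without sample 3 it called 53, and without sample a 218. It called 15 genes by edgeR with the factors of the deposited scaling.

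The shares of genes on one side of vehicle showed which samples made the average. The mean of the vehicle samples was exceeded in 64.5% to 75.5% of the 420 genes by 12 of the 16 drug-treated samples. The other 4 were samples 1, b and 3 of entinostat plus anti-CTLA-4, at 23.8%, 29.8% and 26.2%, and triple combination sample a, at 47.1%. The vehicle samples were as far apart, with samples 2 and 3 at 67.1% and 73.1%, and samples 1, 4, V1 and V2 at 21.0%, 31.9%, 40.2% and 41.9%. The 4 samples that stood below the other drug-treated ones were also the 4 of greatest depth, with 443871, 320237, 309403 and 391309 barcode counts, and the part of depth in this was not tested.

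**Figure D3:**
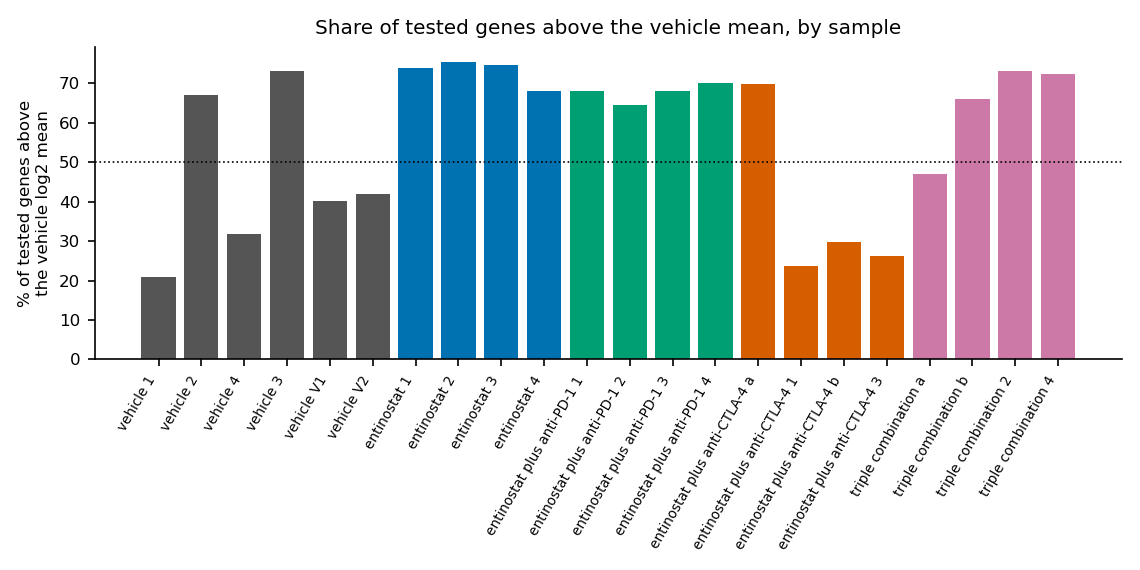
Percentage of the 420 tested genes that lie above the vehicle mean on the log2 scale (vertical axis, from 0), for each sample (bars, coloured by group). Samples 1, b and 3 of entinostat plus anti-CTLA-4 are at 23.8% to 29.8% and vehicle samples 2 and 3 at 67.1% and 73.1%, so samples of both sides cross the 50% line.

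For this reason few genes had all drug-treated samples on one side. Every one of the 16 exceeded the vehicle mean in 3 genes (0.714% of those tested), Nfyc, Peli1 and Psmb9, and every one was below it in 2 (0.476%), Ndufa7 and Yap1. No gene separated all drug-treated from all vehicle samples (0%). The commonest counts were 12 of 16 samples above, in 91 genes, and 13 of 16, in 86. Of the 114 genes higher at an unadjusted p under 0.05, 74 had 13 samples above and 24 had 12. In these 114 genes samples 1, b and 3 of entinostat plus anti-CTLA-4 exceeded the vehicle mean in 12, 10 and 14, while vehicle sample 2 did so in 111 and vehicle sample 3 in 91.

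Psmb9, a catalytic subunit of the immunoproteasome, which trims peptides for MHC class I, was at 18.6 to 48.2 normalized counts in vehicle (median 34.6) and at 33.1 to 146.7 in the drug-treated samples (median 49.5). Its highest value was that of triple combination sample 2, the sample of lowest depth. The log2 fold change was 0.65 ± 0.24 (SE, limma adjusted p = 0.0911), and 8 of 16 samples exceeded the vehicle maximum. Nfyc, a subunit of the CCAAT-binding factor NF-Y, was higher by 0.18 ± 0.08 (adjusted p = 0.123). On the lower side Yap1, the transcriptional effector of the Hippo pathway, stood at 237 to 399.9 in vehicle (median 299) and 189 to 291 in the treated samples (log2 fold change -0.29 ± 0.11, adjusted p = 0.104). Ndufa7, a subunit of mitochondrial complex I, had -0.23 ± 0.10 (adjusted p = 0.138). None of these 4 passed the test, and the ranges of vehicle and treated samples overlapped in each.

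Other genes of one sign in all 4 groups were named by the size of their smallest group effect. On the higher side they were Selp, the P-selectin of platelets and endothelium (1.77 ± 0.70, limma adjusted p = 0.109), the long pentraxin Ptx3 (1.42 ± 0.59, adjusted p = 0.115), the hyaluronan-binding Tnfaip6 (1.24 ± 0.42, adjusted p = 0.0911), Psmb9, and complement component C3 (0.36 ± 0.13, adjusted p = 0.0911). Ptx3 averaged above background only after entinostat alone, so it was tested through the group where it was highest. In vehicle both Ptx3 (1.00 to 17.2 normalized counts) and Tnfaip6 (12.0 to 28.2) were below the limit of 29.3 in every sample. Selp and Tnfaip6 had group values of 3.00 and 2.00 after entinostat alone and of 0.48 and 0.27 with anti-CTLA-4. For neither were the 4 groups shown to differ (F test adjusted p = 0.265 and 0.167). C3 was even, at 0.47, 0.42, 0.30 and 0.26, with 15 of 16 samples above the vehicle mean, but its average of 0.36 was 0.14 with median centring, 0.045 with quantile normalization, 0.023 with TMM and 0.077 with DESeq2. On the lower side were S100a4 (-0.37 ± 0.12, adjusted p = 0.0911), a calcium-binding protein of motile cells, the orphan nuclear receptor Nr2f6 (-0.36 ± 0.12, adjusted p = 0.0911), the galactosyltransferase B4galt4 (-0.32 ± 0.13, adjusted p = 0.115) and Spry2, an inhibitor of receptor tyrosine kinase signalling (-0.31 ± 0.12, adjusted p = 0.109). None of these genes passed in the main comparison. DESeq2 called S100a4 (adjusted p = 0.0273) and Nr2f6, Spry2 and Tnfaip6 (adjusted p = 0.0470 for each), and the quantile fit called Tnfaip6 (limma adjusted p = 0.0477). The others were not called with median centring, quantile normalization, TMM or DESeq2. Under these 4 scalings Nr2f6 was at -0.58 to -0.69 and Spry2 at -0.54 to -0.65.

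Beyond the called genes, the smallest p on the lower side belonged to Hist2h2aa1, S100a4 and the urokinase gene Plau. Hist2h2aa1, a histone H2A gene, ran from 1612 over a median of 1682 to 1957 normalized counts in vehicle. It was at 1118, 963, 1041 and 1090.5 after entinostat alone and at 1444, 1474, 1567 and 1421 with anti-PD-1. In these 8 samples it lay below every vehicle sample. Entinostat plus anti-CTLA-4 gave 1278 in sample a and 1979, 1949 and 1811 in samples 1, b and 3, and the triple combination 1482, 1469, 1584 and 1054. The log2 fold change was -0.33 ± 0.10 (SE, limma adjusted p = 0.0869), with 13 of 16 samples below the vehicle minimum and group values of -0.73, -0.24, -0.01 and -0.34 (F test adjusted p = 0.0109). Plau had -0.40 ± 0.13 (adjusted p = 0.0911), from -0.68 in the triple combination to -0.01 with anti-CTLA-4. Under the 4 other scalings the log2 fold changes were larger in size, -0.51 to -0.63 for Hist2h2aa1, -0.54 to -0.70 for S100a4 and -0.62 to -0.73 for Plau, DESeq2 called all 3 (adjusted p = 0.0470, 0.0273 and 0.0405) and the quantile fit called Plau (adjusted p = 0.0477). Hdac3, itself a target of entinostat, is a housekeeping probe here and was at 212 ± 26.0 (SD, n = 16) against 233 ± 30.2 normalized counts (SD, n = 6), untested.

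Neutrophil genes, which the cells were isolated for, all had positive averages. Of the 11 tested genes of neutrophil granules and maturation, 0 were called. An unadjusted p under 0.05 on the higher side was found in 9, against 27.1% of all tested genes. The median log2 fold change was 0.95 against 0.23 for all genes. S100a9, a subunit of calprotectin, ran from 3347 over a median of 4025 to 14573 normalized counts in vehicle and from 1959 over 12262 to 24140 in the treated samples, so the ranges overlapped at both ends. Its log2 fold change was 1.01 ± 0.33 and that of its partner S100a8 1.04 ± 0.34 (limma adjusted p = 0.0911 for both). Cxcr2, the receptor that brings neutrophils out of the marrow and into tissue, was at 126 to 409 in vehicle (median 157) and 71.3 to 726 in the treated samples (median 420.0), a log2 fold change of 0.95 ± 0.28 (adjusted p = 0.0869). Csf3r, the receptor of G-CSF, had 1.00 ± 0.28 (adjusted p = 0.0844). The F test called all 11 genes, against 28.6% of all tested genes, and the list medians by group were 1.80, 1.49, -0.36 and 0.89. Of the 11, Camp averaged above background only after entinostat alone, so it was tested through the group where it was highest. Camp was at 4.57 to 10.6 normalized counts in vehicle. Cxcr2 was called in the quantile fit (0.70, limma adjusted p = 0.0444) and by DESeq2 (0.66, adjusted p = 0.0470), and without vehicle sample 2 both S100a9 (adjusted p = 0.0081) and Cxcr2 (adjusted p = 0.0078) were.

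Genes common to all leukocytes had the same layout. Of 9 tested, such as Ptprc (CD45), Tyrobp and Selplg, 7 had an unadjusted p under 0.05 on the higher side, against 27.1% of all tested genes. Of these leukocyte genes 0 were called, and their median was 0.75, with 1.44, 1.31, -0.52 and 0.67 by group. Their summed level was 1256 to 4763 normalized counts in vehicle (median 1640), 4369 to 6468 after entinostat alone, 4629 to 5919 with anti-PD-1, 882 to 3984 with anti-CTLA-4 and 2377 to 3962 in the triple combination. The 4 epithelial genes were all lower on average, from -0.32 (Tgfa, limma adjusted p = 0.108) to -0.19 (Cdh1 and Areg), a median of -0.21, with group medians of -0.40, -0.28, 0.06 and -0.21. The leukocyte genes were thus lowest, and the epithelial genes highest, in the group with anti-CTLA-4. The part of this balance in the neutrophil and inflammatory lists was not tested.

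**Figure D4:**
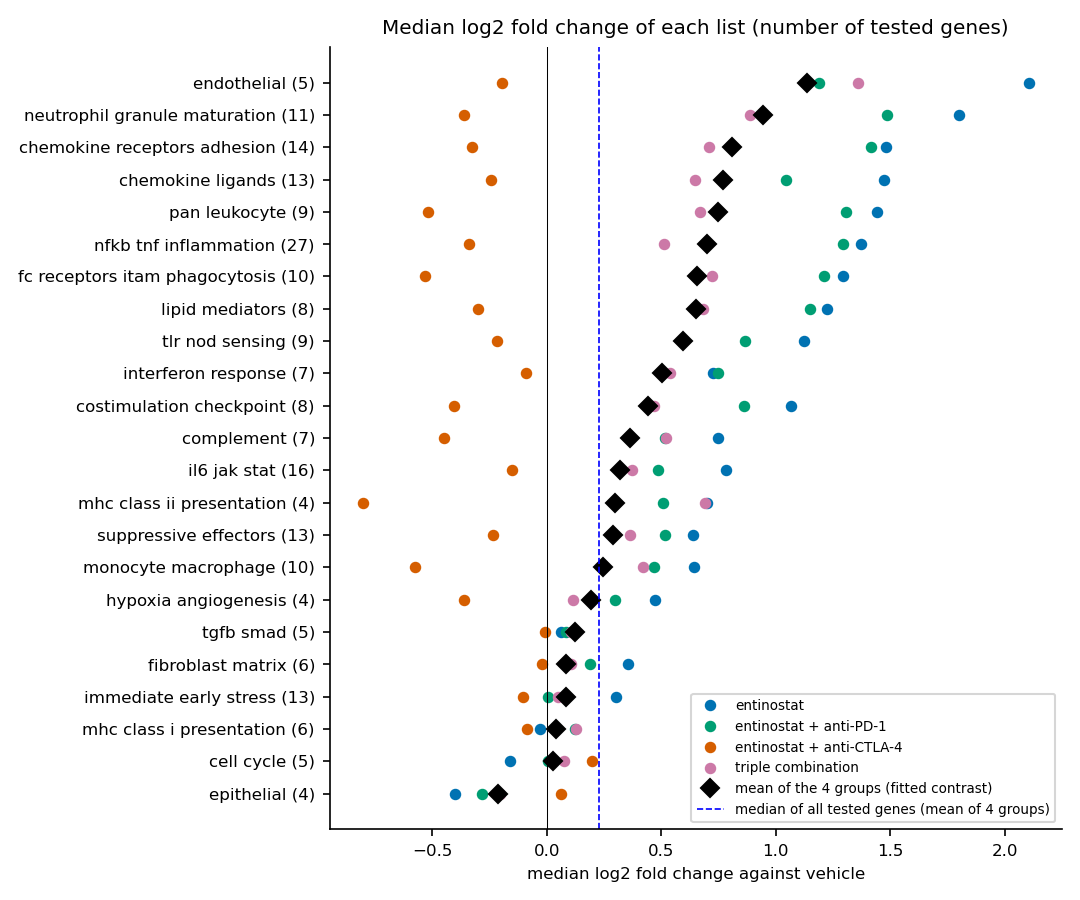
Median log2 fold change against vehicle (horizontal axis) of each list with at least 4 tested genes (vertical axis, number tested in parentheses), for the 4 groups (coloured points) and their average (diamonds), with the median of all tested genes dashed at 0.23. Entinostat plus anti-CTLA-4 lies left of the other groups in every list except the epithelial genes and the cell cycle genes.

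The inflammatory lists had medians above that of all genes, and their counts are to be read against the 27.1% of all tested genes that had an unadjusted p under 0.05 on the higher side. Of 27 tested genes of NF-kB and TNF signalling, the programme that myeloid cells switch on after infection or injury, Csf1 was called, 15 had an unadjusted p under 0.05 on the higher side and 26 were positive, with a median of 0.70. The log2 fold change of Il1b, the interleukin-1 cytokine, was 0.97 ± 0.30 (limma adjusted p = 0.0901), Tnfaip3, the A20 feedback inhibitor, 0.91 ± 0.29 and Tnf 0.92 ± 0.34 (adjusted p = 0.0911 for both). Of 13 chemokine ligands 3 had an unadjusted p under 0.05, a share below that of all genes, with a median of 0.77, and of 14 chemokine receptors and adhesion molecules 8, median 0.81, among them Cxcr4, the receptor that holds neutrophils in the marrow (1.01 ± 0.27, adjusted p = 0.0844). In the Toll-like and NOD receptor list, 3 of 9 genes did, led by the adaptor Myd88 (0.84 ± 0.23, adjusted p = 0.0844) and by Tlr4 (0.80 ± 0.24, adjusted p = 0.0869), median 0.59. Fc receptors and their signalling partners had 7 of 10, median 0.66, and lipid mediator genes 4 of 8, median 0.65. All 5 of these lists without Csf1 had 0 called genes.

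In the interferon list all 7 tested genes were positive, from 0.27 to 0.64, and 4 of the 7 had an unadjusted p under 0.05 on the higher side, among them the receptor chain Ifngr1 (0.50 ± 0.14, limma adjusted p = 0.0844), Irf1 and the ubiquitin-like Isg15 (0.64 ± 0.21, adjusted p = 0.0911), and the median was 0.50. Over all tested genes 27.1% were at that level of p on the higher side and 4.29% on the lower. Among the 6 MHC class I genes Psmb9 was at that level on the higher side and the chaperone Calr (-0.19 ± 0.08, adjusted p = 0.115) on the lower, with a median of 0.04. Of 4 MHC class II genes 0 were, median 0.30. Among 8 co-stimulation and checkpoint genes Icosl, the ligand of ICOS on T cells, had the fourth smallest p of all genes. Icosl was at 21.3 to 64.7 normalized counts in vehicle (median 25.5) and 15.1 to 165 in the treated samples (median 96.2), a log2 fold change of 1.22 ± 0.31 (adjusted p = 0.0844), with 2.19, 1.66, -0.08 and 1.12 by group. It was named after its value was seen.

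The suppressive effectors for which G-MDSCs are known did not pass in the average. Of 13 tested, 0 were called and 4 had an unadjusted p under 0.05 on the higher side, a share near the 27.1% of all genes, and the median of 0.29 was near the 0.23 of all genes. Arg1, arginase 1, was at 23.0 to 116 normalized counts in vehicle (median 47.0) and 21.98 to 147 in the treated samples (median 36.8), and its log2 fold change of -0.26 ± 0.36 (limma adjusted p = 0.642) was within the spread. Ptgs2, the inducible cyclooxygenase, had 0.68 ± 0.31 (adjusted p = 0.142) and differed among groups, at 1.34, 1.48, -0.53 and 0.44 (F test adjusted p = 0.0115). Vegfa, the angiogenic factor, had 0.18 ± 0.13 (adjusted p = 0.319) over groups at 0.45, 0.50, -0.40 and 0.17 (F test adjusted p = 0.00983). Cd274, encoding PD-L1, had 0.91 ± 0.48 (adjusted p = 0.195), Cybb of the NADPH oxidase 0.32 ± 0.48 (adjusted p = 0.648), Tgfb1 0.16 ± 0.17 (adjusted p = 0.506) and Stat3 0.10 ± 0.08 (adjusted p = 0.337). Stat3, Tgfb1 and Vegfa lay below the median of all genes, and their signs were therefore negative under the 4 scalings that remove that shift. That of Cybb was negative under TMM and DESeq2. Nos2 (10.4 to 78.2 normalized counts over the treated samples) and Il10 (4.30 to 39.1) averaged below background in every group and were not tested.

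The other lists lay near or below the median of all genes, or held few genes. Over all tested genes 27.1% had an unadjusted p under 0.05 on the higher side and 4.29% on the lower, against which the counts here are to be read. The IL-6, JAK and STAT list had 7 of 16 genes at an unadjusted p under 0.05, among them the factor Cebpb (0.57 ± 0.16, limma adjusted p = 0.0844), median 0.32, and complement 2 of 7, median 0.36. For immediate early and stress genes it was 4 higher and 1 lower of 13, median 0.08. Hypoxia and angiogenesis (0 of 4, median 0.19), TGF-beta and SMAD (1 of 5, median 0.12) and cell cycle genes (1 of 5, median 0.03) were close to 0. The medians of these last 4 lists and of the MHC class I genes lay below that of all genes and so were negative under the 4 scalings that remove the common shift. Negative too were those of the IL-6 list under TMM, the suppressive effectors under TMM and DESeq2 and the MHC class II genes under both as well. Of 10 monocyte and macrophage markers 0 had an unadjusted p under 0.05, median 0.24, negative under 3 of the scalings, and the dendritic cell list had 1 tested gene, Batf3 (0.24). Hdc and Siglecf, carried by basophils, mast cells and eosinophils, had 1.03 and 0.84 (adjusted p = 0.0911 and 0.0869), while the other 8 genes of that list were below background. Endothelial genes had 3 of 5 higher, Selp, Sele and Ptprb, median 1.14, at summed levels of 100.1 to 435.5 normalized counts in vehicle and 126.5 to 935.5 in the treated samples. Fibroblast and matrix genes had 1 higher and 2 lower of 6, median 0.08, negative under all 4 scalings.

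Which samples were included set how many genes were called. Leaving out vehicle sample 2, which had the second largest share of genes above the vehicle mean among vehicle samples, raised the count from 3 to 127, of which 111 were higher and 16 lower. Leaving out any other vehicle sample (1, 3, 4, V1 or V2), or entinostat plus anti-PD-1 sample 4, gave 0 genes by limma, with 79 to 139 at an unadjusted p under 0.05. Leaving out sample a or b of entinostat plus anti-CTLA-4 gave 13 and 17 genes, and without both V1 and V2 there were 0 (57 at an unadjusted p under 0.05). Among whole groups, leaving out entinostat alone, entinostat plus anti-PD-1 or the triple combination gave 0 genes (37, 56 and 126 at an unadjusted p under 0.05). With weights fitted per sample 194 genes were called, 159 higher and 35 lower, and the 3 genes were among them.

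**Figure D5:**
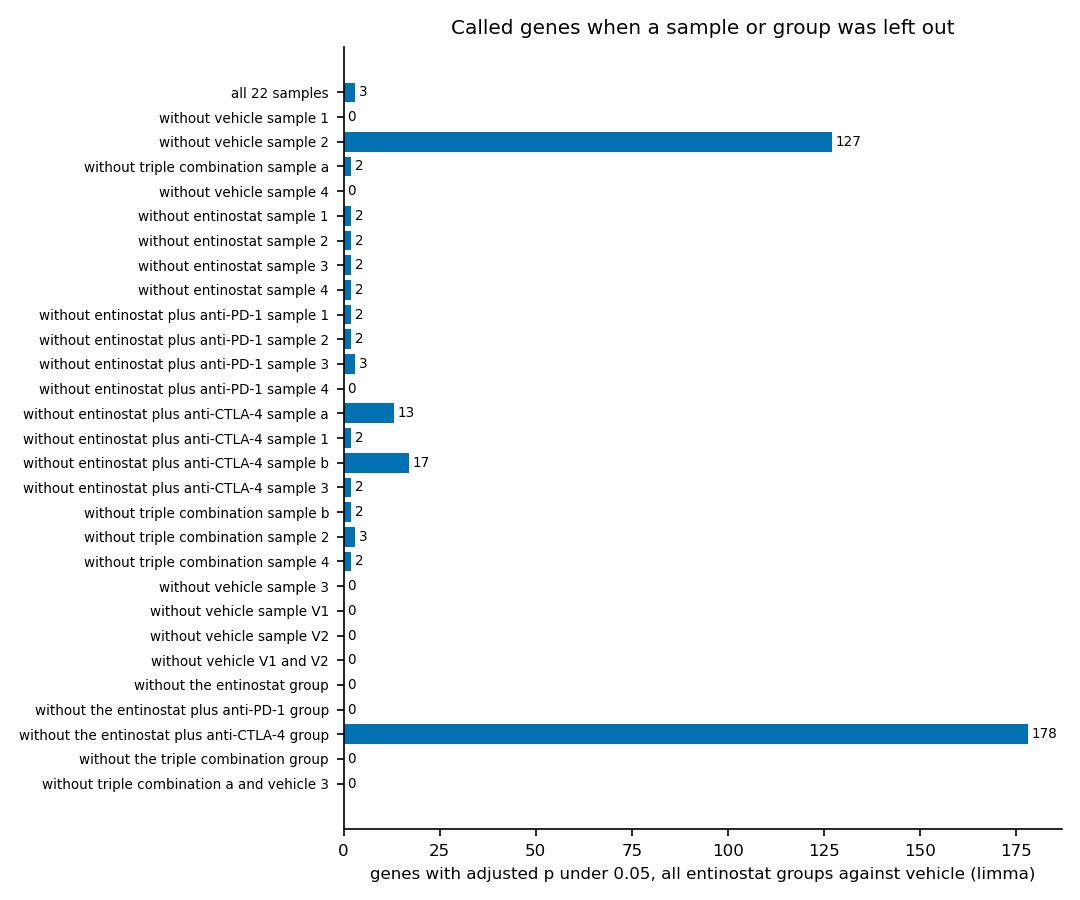
Number of genes with an adjusted limma p under 0.05 in the average of the drug-treated groups against vehicle (horizontal axis, from 0), with all 22 samples and with a sample, a pair of samples or a group left out (bars). The count is 3 with all samples, 127 without vehicle sample 2 and 178 without entinostat plus anti-CTLA-4, and 0 in 11 of the 28 fits that left something out.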

How the data were processed

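The values were NanoString nCounter counts of 655 endogenous, 20 housekeeping, 8 negative and 6 positive probes in 22 samples. The authors deposited them as normalized signal, with limma named in the submitters' processing notes (no version), and how they were normalized is not given in the sources here. Every sample's normalized values under 200, apart from those at the floor of 1, lay within 0.1 normalized counts of a whole multiple of 1 step (100%). With steps as small as 0.400 this tolerance was a loose check. Whole counts were recovered from that signal for edgeR and DESeq2. All pairs of samples differed beyond sampling noise, with a chi-square of at least 2.51 per degree of freedom.

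Values were tested as log2(normalized count + 1) with limma 3.58.1 in R 4.3.3 (tables in Python 3.11.15), with 1 mean per group, 17 residual and 2.14 prior degrees of freedom; fold changes understate changes of low genes. Genes had to exceed in at least 1 group the mean plus 2 SD of the negative probes (29.3 normalized counts); 235 were left out. The contrast was the unweighted mean of the 4 entinostat groups minus vehicle, two-sided, adjusted by Benjamini-Hochberg over 420 genes at 0.05, and a moderated F test compared the 4 groups. Alternatives included edgeR 4.0.16, DESeq2 1.42.0, other scalings, cartridge terms, sample weights and left-out samples. Subtraction of the negative controls was chosen after seeing the data. With it the average called 2 genes, both among the 3 of the main fit, and the F test 88, and the median of all genes was 0.19. On simulated data of 420 genes limma recovered 81% of genes changed by 1 on the log2 scale and 98% of those changed by 2. The simulation changed 100 genes by each size, equally in all 4 groups, with noise independent between genes. The measured groups differed among themselves, so these shares are not the recovery to be had in the measured data.

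The genes and lists were chosen with earlier results of these data known. Named were the called genes (the 3 smallest p where a direction had none), the 5 in each direction with the largest smallest group effect of one sign, the 5 smallest F test p, called list members, and Cxcr2, Vegfa, Tgfb1, Il10, Cybb, Cd274, S100a9, S100a8, Stat3, Ptgs2, Nos2 and Arg1. A gene that this rule selects is not reported here. Other genes were named after their values were seen. RefSeq held 645 of the 655 symbols.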

Additional observations from a re-analysis of the deposited data

Results flagged for a closer look

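Among 30 named genes in 5 groups, 13 of the 150 sets of values had a sample set apart from the others by more than Dixon's 95% limit. For normally distributed values chance gives this in about 1 of 20 sets. The limit was applied to normalized counts without a log, and all 13 samples were the highest of their set, so that rate need not hold here. The genes share samples, so the sets are not independent. In entinostat plus anti-CTLA-4, sample a was highest, in normalized counts, for Csf1 (532, next 244), Selp (220.1, next 40.4), Tnfaip6 (103, next 16.6), Ptx3 (66.5, next 4.30), Cd274 (339.7, next 68.4), Cybb (91.6, next 20.9), Il10 (11.8, next 5.22) and Tgfb1 (331, next 204). Without that sample the average called 13 genes in place of 3.

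In vehicle, sample 2 was highest for Il17ra (145.8, next 97.8), S100a9 (14573, next 5936), Cd274 (423, next 190.5) and Cxcr2 (409, next 175). The last set was Btg2 in the triple combination, where sample 4 stood at 1289.7 and the next at 997.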

How the results depend on the processing

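The 3 genes called in the average became 5 with median centring, 19 with quantile normalization, 1 with TMM in edgeR, 25 with DESeq2 and 194 with sample weights. The count was 0 with edgeR on the deposited scaling (101 at an unadjusted p under 0.05), 0 as 2 groups of 16 and 6 (69), 0 within either cartridge, 0 with the epithelial covariate, 0 without V1 and V2, 0 without triple combination a and vehicle 3, and 0 without entinostat alone, entinostat plus anti-PD-1 or the triple combination; it was 178 without entinostat plus anti-CTLA-4. Leaving out a sample gave 0 to 127 genes. The 120 genes differing among groups became 183 with DESeq2, 306 with sample weights and 15 with edgeR on the deposited scaling, and 0 with cartridge as a block, within either cartridge, with the epithelial covariate, without entinostat alone or without entinostat plus anti-CTLA-4; leaving out a sample gave 1 to 218, with medians of all genes of 0.15 to 0.31. That median, 0.23, was -0.076 with quantile normalization, -0.13 with TMM and -0.068 with DESeq2. These scalings remove a common shift by construction; the cause of the other changes was not tested.

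Signs turned, in the order median centring, quantile, TMM, DESeq2 and cartridge 2, for Stat3 (-0.12, -0.15, -0.21, -0.14, -0.037), Tgfb1 (-0.066, -0.14, -0.17, -0.10, -0.0072) and Vegfa (-0.046, -0.14, -0.14, -0.071, -0.18). Tgfb1 was -0.061 with the epithelial covariate. Cybb was -0.27 with TMM, -0.18 with DESeq2, -0.17 without V1 and V2 and -0.35 with the covariate, Arg1 0.015 with sample weights and 0.13 in cartridge 1, and Rhog -0.011 in cartridge 2. None of these genes was called in the main comparison.

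Whether replicate numbers pair the samples was not settled. Of 24 same-numbered pairs 10 had a correlation of deviations over 0.1 (-0.54 to 0.525), and pairs of unlike number were not compared. Over the 16 numbered samples the average called 0 genes with the replicate block (93 at an unadjusted p under 0.05) and 0 without it (96), the F test 149 and 205, and Cybb was -0.15 in both. Depth limits triple combination sample 2 most, where 1 barcode count was worth 9.78 normalized counts.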
